A study of Homo sapiens with 34 samples.

Results

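The libraries described here are those of the overexpression line in a SLAM-seq pulse and chase of hTERT-RPE1 cells, a telomerase-immortalised human line derived from retinal pigment epithelium. Members were chosen by the sample title, which gave 17 of the 34 libraries of the series, and the other 17 belong to the knockdown line. By the study's methods, the overexpression cells carried a doxycycline-inducible shRNA against the 3′ UTR of CCND1 together with an inducible, FLAG-tagged CCND1 that the shRNA spares. CCND1 encodes cyclin D1, a driver of G1 progression. The genotype field names the knockdown and overexpression constructs for every sample of the series, both constructs came in by lentivirus, and the lines were polyclonal for CCND1. All cells of both lines received 0.5 µg/mL doxycycline. From day 4 on, the medium contained 10 µM 4-thiouridine (s4U), renewed at intervals of 3 h over a pulse of 24 h, and the chase was in 1 mM uridine. Unlabelled controls received uridine in place of s4U. Replicate 1 held an unlabelled library and 7 labelled ones (0, 20, 90, 180, 360, 720 and 1440 min of chase), and replicate 2 an unlabelled library and 8 labelled ones (0, 10, 20, 45, 180, 360, 720 and 1440 min). In the study the overexpression cells serve as the small cells of a comparison of mRNA turnover with cell size. The question here was which functions lost label fast or slowly within this line, and how far the 720 min library of replicate 1 moved the answer.

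The lifetime of an mRNA sets how quickly its level can follow a change in transcription. Most mRNAs are first shortened at the poly(A) tail by the CCR4-NOT and PAN2-PAN3 deadenylases, then decapped and degraded from the 5′ end by XRN1, or from the 3′ end by the exosome. Elements in the 3′ UTR recruit proteins that speed this up: AU-rich elements bind ZFP36 and related proteins, and Pumilio elements bind proteins of the PUF family, and both kinds of protein recruit CCR4-NOT. Messages of signalling and transcription factors are known for rapid turnover, and those of ribosomal proteins and metabolic enzymes for long lives. In SLAM-seq, s4U that was built into RNA during the pulse is alkylated and read as C, so the T>C rate, conversions per covered T base, falls as labelled copies are degraded or are diluted by new unlabelled ones. A half-life taken from this rate therefore also contains dilution by growth.

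The 17 libraries held 14712332 to 42843003 reads in annotated 3′ UTRs. Over all these reads the T>C rate was 0.0176% and 0.0279% in the unlabelled libraries of replicates 1 and 2. At 0 min it was 0.963% and 0.933%, at 180 min 0.804% and 0.776%, at 360 min 0.553% and 0.490%, at 720 min 0.175% and 0.231%, and at 1440 min 0.0714% and 0.0657%. The rate in both replicates was thus closer to background than to the start by 720 min. Across 8924 genes, log2 CPM of the 720 min library of replicate 1 correlated with the mean of the line's other labelled libraries at r of 0.875 and that of the unlabelled library of replicate 1 at 0.925, while the other 14 labelled libraries reached 0.970 to 0.990. Genes expressed in other cells were low: none of the 11 blood and endothelial markers reached 1 CPM in any library. The mesenchymal marker VIM (median 5340 CPM) and the epithelial keratins KRT8 and KRT18 (190 and 215 CPM) were well expressed. The epithelial markers KRT19, CDH1 and EPCAM had medians of 0 CPM. So did the pigment epithelium markers RPE65, BEST1, RLBP1, TYR, TYRP1, DCT, SERPINF1 and TTR. Of the same list, PMEL, LRAT and OTX2 had low medians of 0.0826, 0.135 and 1.74 CPM, and OTX2 reached 3.15 CPM. MITF, a regulator of pigment cells, lay between 23.2 and 34.0 CPM. The name of the line therefore gives its origin, and most of the listed markers of differentiated pigment epithelium had a median of 0 CPM.

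For each gene and replicate, the unlabelled rate was subtracted, the rest was divided by its value at 0 min to give the percent of label left, and an exponential curve was fitted. Of the 9555 and 9597 genes fitted in replicates 1 and 2, 5823 and 6501 met the R2 minimum of 0.6 with a rate constant inside the searched range, and 4803 did so in both. Their mean half-lives over the 2 replicates ran from 0.0748 to 29 h, with a median of 4.58 h. The medians of the single replicates over the same genes were 4.78 and 4.35 h, which is an SD of 0.305 h. Across these genes the half-lives of the 2 replicates correlated at a Spearman rho of 0.670, which describes genes sharing the same libraries and is no test. The median relative SD of a gene was 18.2%. Half-lives under 2 h were found for 266 genes, and those over 24 h for 8. Genes that lost little label over 24 h give a flat curve, which can fail the R2 minimum, so the kept genes do not stand for all stable transcripts.

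The course of the median gene did not follow a single exponential in either replicate. In replicate 1 the median label left was 76.7% at 180 min and 37.3% at 360 min, and in replicate 2 it was 73.6% and 30.6%. The fitted curves gave 64.8% and 41.9%, and 62.0% and 38.5%, at these times. At 180 min 82.9% and 83.0% of genes thus lay above their fit, whereas at 720 min only 7.56% and 17.4% did. The median gene kept 1.21% and 4.57% of its label at 720 min, below the fitted 17.6% and 14.8%. Label was lost slowly over the first hours and faster afterwards than the model allows. The half-lives below rank genes within the line, and their absolute values carry this misfit. Whether RNA made early in the chase still took up label was not tested over all genes.

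**Figure D1:**
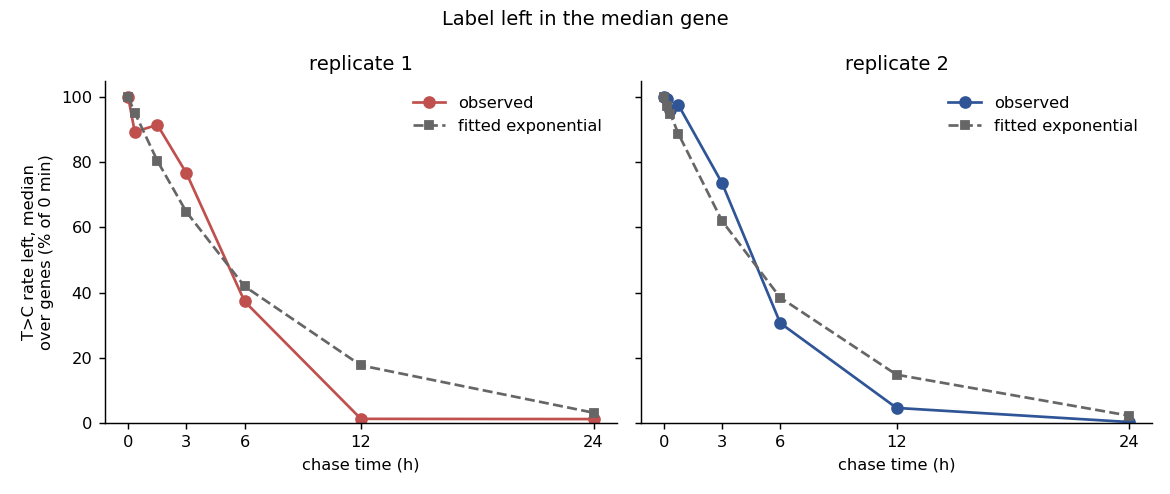
Label left in the median gene of 4803 genes (% of the 0 min rate after background subtraction, vertical axis) against chase time (h, horizontal axis) in replicates 1 and 2; circles are observed medians and squares the medians of the fitted exponential curves. The observed medians lie above the fit at 180 min (76.7% and 73.6%) and below it at 720 min (1.21% and 4.57%).

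To test single genes without the late, low-rate libraries, the slope of background-subtracted conversions on chase time from 0 to 360 min (11 libraries) was compared with that of the median gene by edgeR's quasi-likelihood test with replicate as a block. The slope is on the natural log scale per hour and relative to the median gene, whose own slope was -0.156 per h. A negative value means faster loss. Of 7583 genes tested, 1637 lost label faster (21.6%) and 1537 slower (20.3%) at an adjusted p of 0.05. With the T>C rate over all reads as the reference, 2319 were faster and 761 slower, so faster genes made up 75.3% of the calls in place of 51.6%. Replicate 1 alone gave 614 faster and 609 slower, and all times to 1440 min gave 2503 and 522. Among genes of at least 10 CPM that passed the test, those with the shortest mean half-lives included FAM83G (0.797 h ± 0.113), ELMO2 (0.951 h ± 0.132), BCL6 (1.15 and 0.945 h), PRR14L (1.10 h ± 0.372), SETD1B (1.14 h ± 0.110) and WEE1 (1.15 h ± 0.289; all SD, n = 2). They include a transcriptional repressor (BCL6), a histone methyltransferase (SETD1B) and the kinase that holds CDK1 inactive before mitosis (WEE1). The longest belonged to RPLP1 (29 h ± 2.10), S100A6 (28.1 h ± 1.68), RPS29 (28.1 h ± 1.89), LGALS1 (27.5 h ± 3.42), RPLP2 (25.8 h ± 2.50), RBM3 (25.1 h ± 0.651) and NDUFB2 (24.6 h ± 1.92). This end held ribosomal proteins, a calcium-binding S100 protein, galectin-1, a cold-inducible RNA-binding protein and a subunit of respiratory complex I. These values are longer than the doubling time that the study estimated for the overexpression cells. Since growth also dilutes the label, they exceed what dilution alone allows. Neither they nor their order can be read as mRNA lifetimes, and the reason was not tested. The labels do not say whether the replicates were separate cultures, so p-values measure the spread between libraries, which may be technical.

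Immediate early genes, transcription factors and signalling genes induced within minutes of a growth stimulus, had the shortest median half-life of the lists by the mean over replicates. Of 40 in the files, 25 were tested, 24 of them lost label faster than the median gene and none slower, against 21.6% and 20.3% of all genes tested. NR4A1 was the member that did not pass. Over 0 to 1440 min 13 were faster, and 12 without the 720 min library of replicate 1. The median half-life of the 24 members with one was 1.97 h, between 0.631 h for MYC and 4.08 h for SRF. In replicate 2 alone the median was 1.93 h, above the 1.46 h of the KLF and SP factors. The half-life of JUNB (2.14 h ± 0.459) is included, although its abundance at 45 and 90 min was over 2-fold that at 0 min. The median member kept 35.0% and 34.1% of its label at 180 min and 8.41% and 6.83% at 360 min in replicates 1 and 2.

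IER3, an early response gene that modulates apoptosis, shows the pattern in single libraries. Its T>C rate at 0 min was 1.12% in replicate 1 (95% Wilson interval 1.07% to 1.18%, 129738 covered T bases) and 1.13% in replicate 2 (1.07% to 1.20%). Label left in replicate 1 was 73.1, 41.3, 28.3, 6.41, 0 and 0.249% at 20, 90, 180, 360, 720 and 1440 min. In replicate 2 it was 63.1, 64.4, 69.1, 25.0, 8.90, 0.0828 and 0.0885% at 10, 20, 45, 180, 360, 720 and 1440 min. Less than 10% was thus left by 360 min in both replicates, while the median gene kept over 30%. The half-lives were 1.30 and 1.10 h (adjusted p of 2.8e-06 by edgeR). JUN, a subunit of the AP-1 transcription factor, kept 31.5% and 42.2% at 180 min and 10.3% and 8.71% at 360 min, with half-lives of 1.64 and 2.22 h (adjusted p = 1.3e-07 by edgeR). MYC, which drives growth and ribosome synthesis, kept 39.3% and 32.4% at 180 min and 6.11% and 1.31% at 360 min. Its fitted half-lives of 0.269 and 0.992 h differed widely, as did label left at 20 min, which was 36.4% in replicate 1 and 72.7% in replicate 2. The call of faster loss held (slope -0.32 ± 0.0635 SE, adjusted p = 4.9e-04 by edgeR), but its half-life is known only roughly.

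**Figure D2:**
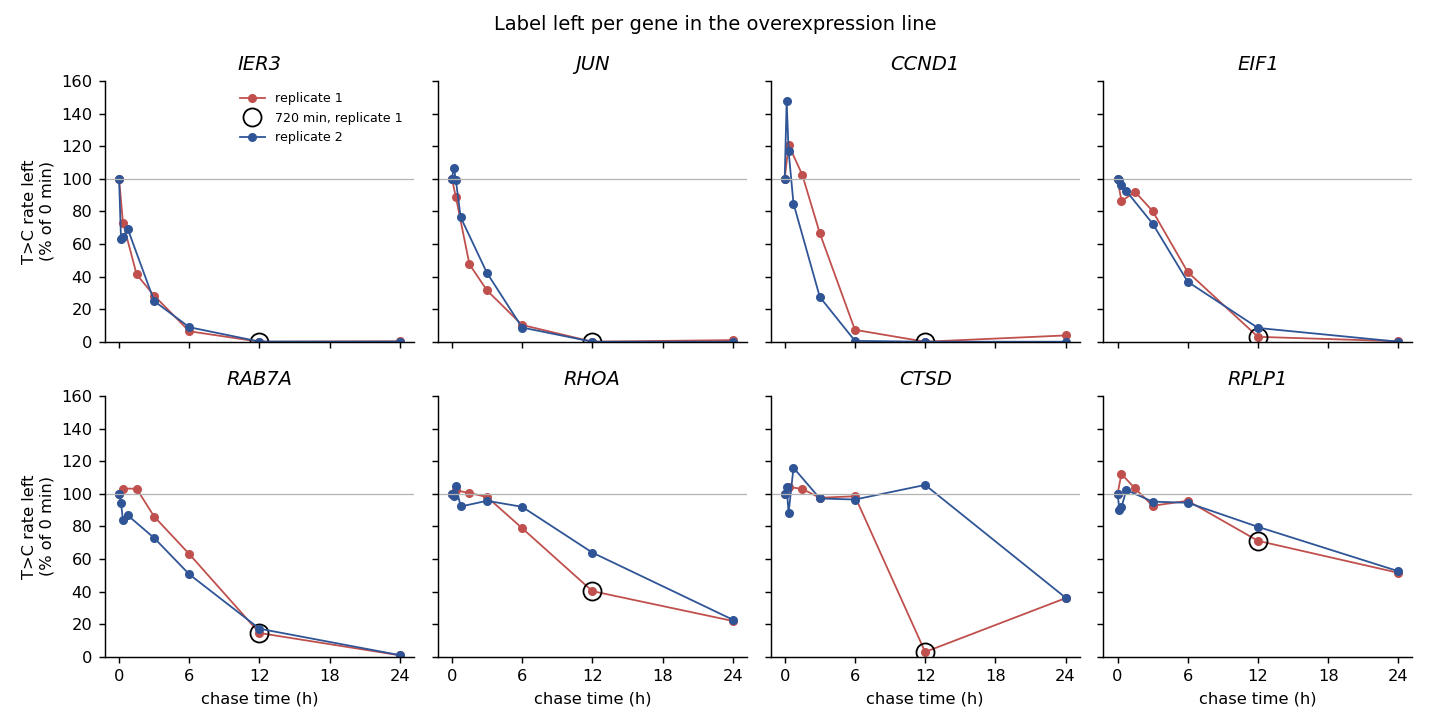
Label left (% of the 0 min rate after background subtraction, vertical axes) against chase time (h, horizontal axes) for 8 genes, with each replicate drawn as a line with a point per library. IER3 and JUN were near background by 720 min, EIF1 kept 42.8% and 36.8% at 360 min, and RHOA and RPLP1 kept label to 1440 min; the replicate 1 point of CTSD at 720 min (2.97%) lies below both of its neighbours.

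Other lists with short medians hold regulators and mediators of signalling. Counts of this and all later lists are to be read beside 21.6% faster and 20.3% slower among all genes tested. Of 11 tested feedback inhibitors of ERK signalling, the growth-factor kinase cascade, 9 lost label faster and none slower (DUSP4 and PHLDA2 did not pass), and over 0 to 1440 min 3 were faster. DUSP1, a phosphatase of MAP kinases, had half-lives of 1.69 and 1.31 h (slope -0.40 ± 0.0366 SE, adjusted p = 2.8e-07 by edgeR). Of 13 tested KLF and SP zinc finger transcription factors 6 were faster and none slower (10 without the 20 min library of replicate 1, and 3 over 0 to 1440 min), and the 5 half-lives had a median of 2.10 h, with KLF6 at 1.73 and 1.46 h and SP3 at 3.73 and 3.73 h. KLF2, KLF6 and KLF10 also belong to the immediate early list, so these lists overlap. Of 18 cytokines and growth factors 10 were faster and none slower, and the list median was 2.79 h. The neutrophil chemokine CXCL8 had half-lives of 2.39 and 1.94 h (adjusted p = 3.6e-07 by edgeR), and the vasoconstrictor EDN1 1.25 and 0.472 h (adjusted p = 2.8e-05 by edgeR). Of 17 NF-kB subunits and feedback genes 8 were faster and none slower. Those with the shortest half-lives were NFKBIZ (0.564 h ± 0.00596) and TNFAIP3 (1.46 h ± 0.433), an inducible cofactor and an inhibitor of the pathway, while the subunit RELB (5.03 h ± 0.331, adjusted p = 0.80 by edgeR) did not pass. SPRY2, an ERK feedback inhibitor, also passed, but its half-lives of 1.47 and 0.201 h rest on unlabelled rates of 0.00747% and 0.430%, so that the background of replicate 2 took much of its signal.

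TGF-beta and BMP regulators had a median half-life of 3.57 h, with 12 of 19 faster and none slower. SMAD7, which inhibits TGF-beta receptors, had a half-life of 1.62 h ± 0.156 and BAMBI, a decoy receptor, 2.19 h ± 0.299. Among p53 targets 11 of 21 were faster, for example the growth arrest gene GADD45A (1.98 and 1.38 h, adjusted p = 6.0e-07 by edgeR) and the kinase PLK3 (2.59 and 2.0 h). The 2 slower p53 targets were CCNG1 (7.09 h ± 1.19) and RPS27L (9.62 h ± 0.228), a paralog of a ribosomal protein. Genes with a ZNF symbol, mostly KRAB zinc finger factors, numbered 119 tested, of which 53 were faster and 3 slower (ZNF428, ZNF664 and ZNF90). Of 498 in the files 313 reached 1 CPM, 237 could be fitted in both replicates and 62 were kept in both (median 2.65 h). ZNF90 stood apart from the list at 20.2 h ± 2.71 (adjusted p = 2.2e-05 by edgeR). The 5 circadian clock genes tested gave 1 faster (NR1D2), 1 slower (ARNTL2) and 3 that did not pass.

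CCND1 itself was among the faster genes. The reads lie in the 3′ UTR that the shRNA targets, and they do not measure the coding part of the transgene, so they check neither construct. The shRNA was induced throughout pulse and chase. The loss measured is thus that of a targeted mRNA, and its decay without the shRNA was not measured. Across the labelled libraries CCND1 lay between 24.8 and 56.9 CPM, and at 0 min 192 and 225 conversions were counted in 31607 and 27313 covered T bases. Label left in replicate 1 was 121, 102, 66.6, 7.30, 0 and 3.86% at 20, 90, 180, 360, 720 and 1440 min. In replicate 2 it was 148, 117, 84.8, 27.4, 0.539, 0 and 0% at 10, 20, 45, 180, 360, 720 and 1440 min. No loss was seen in the first 20 min in either replicate, and nearly all label was gone by 360 min. The half-lives were 3.60 and 2.07 h (slope -0.44 ± 0.0753 SE, adjusted p = 1.5e-04 by edgeR). The mRNA half-life of 2.83 h ± 1.09 (SD, n = 2) is imprecise, and the 0 min value, to which all others are scaled, was below the next one in both replicates.

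Cell cycle groups held members of both kinds. Of 54 mitosis genes tested 32 were faster and 5 slower, with a median half-life of 3.93 h. WEE1 (1.36 and 0.949 h, adjusted p = 5.0e-05 by edgeR) and the kinetochore motor CENPE (1.85 and 1.39 h) were at the short end. The slower genes were BIRC5, CCNB2, FOXM1, MYBL2 and PTTG1, where FOXM1 and MYBL2 are transcription factors of the mitotic programme and PTTG1 is securin (7.62 h ± 0.0871). DNA replication and G1/S genes gave 15 faster and 12 slower of 49, but 18 and 3 with the rate over all reads as reference and 25 and 0 over 0 to 1440 min. Here the phosphatase CDC25A (1.88 and 2.04 h) was short, and the nucleotide enzymes TK1 (9.46 and 10.7 h) and DUT (10.4 and 11.9 h, adjusted p = 9.4e-07 by edgeR) were long. The factor E2F2 was called faster, but its half-lives of 3.91 and 0.663 h differed widely. DNA repair and checkpoint genes gave 9 faster and 3 slower of 33, a share of faster genes (27.3%) near the 21.6% of all genes, with PALB2, a partner of BRCA2, at 1.40 h ± 0.0317 and the end-joining protein XRCC5 at 7.02 h ± 0.302. Over 0 to 1440 min mitosis genes gave 26 faster and 1 slower and DNA repair genes 10 faster and none slower.

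RNA-processing groups also held both extremes. SR splicing factors and related genes gave 8 faster and 8 slower of 21, but 11 and 4 with the rate over all reads as reference and 8 and 0 over 0 to 1440 min. CLK1, a kinase of SR proteins, had half-lives of 1.96 and 0.862 h (slope -0.47 ± 0.0869 SE, adjusted p = 2.8e-04 by edgeR), while the hnRNP proteins HNRNPM and HNRNPA2B1 had 8.91 h ± 0.0944 and 10.1 h ± 1.23. Ribosome biogenesis genes gave 18 faster and 5 slower of 49 with a median of 4.02 h, and the slower members FBL, MRTO4, NCL, NOP10 and NPM1 include the snoRNP methyltransferase fibrillarin (FBL, 14.1 and 10.3 h). The RNA polymerase I and III subunit POLR1C was at the other end (2.96 and 1.79 h, adjusted p = 0.0028 by edgeR). Over 0 to 1440 min ribosome biogenesis genes gave 16 faster and 1 slower. The mRNA decay machinery gave 13 faster (30.2%, beside 21.6% of all genes) and 3 slower of 43, and 20 and 0 with the rate over all reads as reference. The 3 slower members, EXOSC5, EXOSC7 and EXOSC8, are all subunits of the exosome, and EXOSC8 had half-lives of 9.17 and 6.12 h. CNOT11 of the CCR4-NOT deadenylase was among the faster members (3.73 and 1.67 h, adjusted p = 0.0090 by edgeR).

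Stress and lipid groups spanned a wide range. Among amino acid and unfolded protein stress genes (8 faster and 10 slower of 35), the transcription factor CEBPB (2.04 and 1.75 h) and the phosphatase subunit PPP1R15B (2.11 and 2.25 h) were short, and the endoplasmic reticulum chaperones CALR (12 and 9.95 h) and HSP90B1 (11.7 and 10.7 h) long. The shares of this list, 22.9% faster and 28.6% slower, lay near the 21.6% and 20.3% of all genes. Among heat shock proteins (5 faster and 12 slower of 30), the co-chaperones BAG3 (2.84 h ± 0.0328) and DNAJB4 (2.54 h ± 1.55) were short. The 12 slower genes included 8 subunits of the cytosolic chaperonin (CCT genes and TCP1), a subset picked after its values were seen, with CCT7 at 12 h ± 0.929. Over 0 to 1440 min heat shock proteins gave 15 faster and 2 slower. In sterol and fatty acid synthesis, 4 of 29 were faster and 10 slower. INSIG1, a sterol-sensing regulator, and the sterol enzyme MSMO1 were among the faster genes, and the slower FASN (fatty acid synthase) and ACAT2 (an acetyl-CoA acetyltransferase) had half-lives of 8.52 h ± 3.76 and 9.63 h ± 2.64. Which side of the median gene these lists lean to depended on the reference: with the rate over all reads as reference, the counts were 14 faster and 8 slower for amino acid and unfolded protein stress and 7 faster and 5 slower for sterol synthesis.

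Cytosolic ribosomal proteins had the longest median half-life of the lists. All 38 tested lost label more slowly than the median gene, against 20.3% of all genes tested. Of 78 such genes in the files 21 lay only in intervals with over 10% multimapped reads, where pseudogenes and other near-identical copies can share reads and which were left out, and 33 had a half-life in both replicates. Their median was 18.3 h, from 9.34 h for RPL15 to 29 h for RPLP1. Values above the study's doubling time carry the limit given for the longest half-lives. The median member kept 92.6% and 91.9% of its label at 360 min and 28.8% and 27.0% at 1440 min. RPLP1, a protein of the ribosomal stalk, had T>C rates of 0.518% and 0.498% at 0 min and 0.291% and 0.291% at 1440 min. In percent of label left it stood at 112, 103, 92.7, 95.7, 71.2 and 51.5% in replicate 1 and at 90.2, 91.7, 102, 95.2, 94.5, 79.8 and 52.5% in replicate 2, in order of chase time. It thus still held 51.5% and 52.5% of its label at 24 h, and it was called slower from 0 to 360 min (adjusted p = 1.9e-06 by edgeR). RPL27A had half-lives of 19.1 and 18.3 h and RPS12 14.4 and 23.2 h.

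Nuclear-encoded subunits of oxidative phosphorylation had 59 of 67 slower, none faster and a median half-life of 10.5 h. NDUFB2 of complex I had 26.0 and 23.3 h and COX7A2 of complex IV 23.9 and 16.3 h. The files held no gene encoded by the mitochondrial genome among the list members. Glycolysis genes had nearly the same median, 10.6 h, with 10 of 16 slower. Of the others 5 did not pass, among them the lactate transporter SLC16A1 (4.76 and 2.98 h), and the glucose transporter SLC2A1 lost label faster (4.75 and 3.56 h, adjusted p = 0.0080 by edgeR), while GAPDH had 18.5 and 18.9 h and PGK1 20.5 and 11.1 h. GAPDH kept 98.1% and 90.7% of its label at 360 min and 35.7% and 29.2% at 1440 min. Mitochondrial ribosomal proteins gave 7 faster and 19 slower of 68 with a median of 5.65 h, but 25 faster and 1 slower over 0 to 1440 min.

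Among genes of protein synthesis and turnover, the proteasome had 22 of 31 slower and none faster (median 7.86 h), with the core subunits PSMB4 (14.4 h ± 0.290) and PSMB3 (15.6 h ± 4.61) at the long end. Translation factors gave 18 slower and 2 faster of 35 (median 6.31 h). The faster ones were the initiation factors EIF4A2 (2.78 and 3.40 h) and EIF5 (3.82 and 2.78 h), and the elongation factor subunit EEF1D was long (12.6 and 12.9 h). EIF1, which selects the start codon, had half-lives of 4.95 and 4.47 h and a slope 0.01 ± 0.0109 (SE) from that of the median gene (adjusted p = 0.55 by edgeR). The tRNA synthetases gave 3 faster and 8 slower of 29 (27.6% slower, beside 20.3% of all genes) with a median of 6.08 h. With the rate over all reads as reference, tRNA synthetases gave 4 faster and 1 slower and mitochondrial ribosomal proteins 13 faster and 9 slower, so the lean of both lists changed sides. Over 0 to 1440 min the proteasome gave 7 faster and 7 slower and translation factors 10 faster and 6 slower.

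Structural and secretory groups were slow. Actin cytoskeleton genes gave 33 slower and none faster of 38, with a median of 8.32 h. MYH10, RDX, VASP and ZYX were among the 5 that did not pass, and the tropomyosin TPM2 (18.9 h ± 3.58) and the myosin light chain MYL6 (19.0 h ± 3.51) were the longest. RHOA, a GTPase that controls stress fibres, kept 79.0% and 92.1% of its label at 360 min, with half-lives of 12.1 and 16.3 h. Collagens and other matrix genes gave 24 slower of 34 (median 7.30 h), with fibronectin (FN1) at 16.6 and 15.1 h, whereas COL1A1 had 2.54 and 2.61 h but did not pass (adjusted p = 0.44 by edgeR). Lysosomal genes gave 21 slower of 44 (median 7.06 h), with the membrane protein LAMP1 at 16.6 h ± 1.19. RAB7A, a GTPase of late endosomes, had 6.99 and 5.40 h and was slower (adjusted p = 0.0022 by edgeR). Annexins, S100 proteins and galectins gave 12 slower of 15 (median 8.58 h), and tubulins 7 slower of 10 (median 5.72 h). None of the matrix, lysosome, annexin or tubulin genes was faster. With the rate over all reads as reference 28 actin, 11 matrix and 11 lysosomal genes were slower. Over 0 to 1440 min actin genes gave 4 faster and 16 slower, and 3 matrix, 3 lysosomal, 4 annexin, S100 or galectin and 3 tubulin genes were faster. For tubulins the lean also rests on the reference, since the rate over all reads gave 1 faster and 1 slower.

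Interferon response genes held both faster and slower members. Of 16 tested 8 were slower and 2 faster, fewer faster than the 21.6% of all genes. Only 8 of the 38 in the files had a half-life, and their median of 13.6 h was the second longest of the lists. With the rate over all reads as reference 5 were slower and 2 faster. The faster ones were IRF1, a transcription factor, and IFIT5, an antiviral RNA-binding protein. Of the class I antigen presentation genes, HLA-B had half-lives of 23.8 and 21.7 h and HLA-C of 15.3 and 27.4 h, while HLA-E had 3.96 and 9.78 h and did not pass (adjusted p = 0.089 by edgeR).

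**Figure D3:**
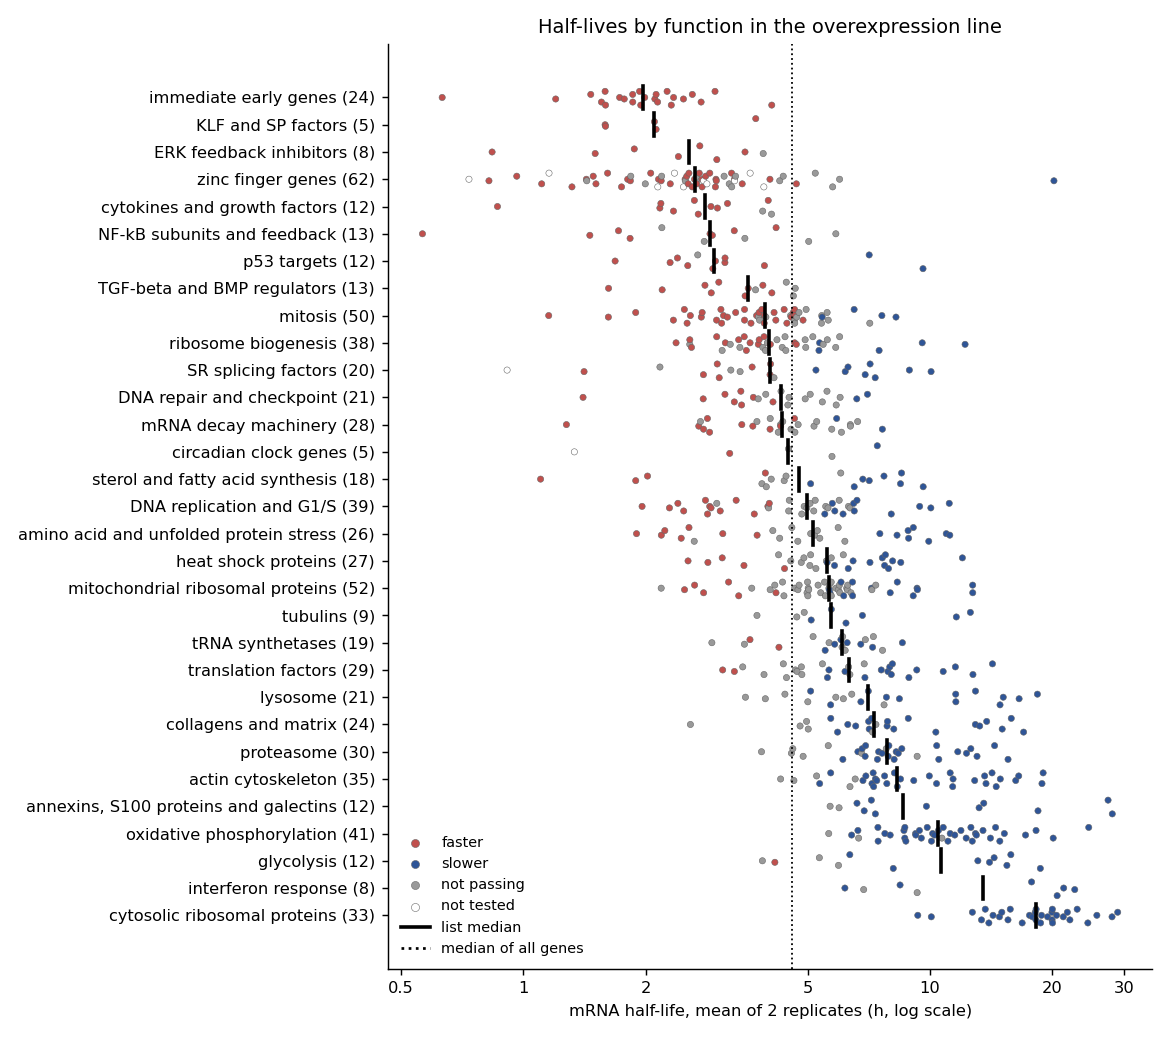
Half-lives (h, log axis) of the members of each gene list that have one in both replicates; each point is the mean of 2 replicates for a gene, and the vertical bar of each row marks the list median. Medians run from 1.97 h for immediate early genes to 18.3 h for cytosolic ribosomal proteins, beside 4.58 h over all genes.

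The 3′ UTR intervals of these genes were then searched for sequence features that played no part in choosing the libraries. For each gene the interval with the most reads was used, on the transcribed strand of hg38, and DNA letters stand for the RNA. The letters TATTTAT mark the core of an AU-rich element and TGTANATA a Pumilio element, where N is any base. The following 29-base windows show matches, in capitals, in genes that lost label faster.
IER3 (chr6:30743653-30743681, minus strand): ctcctaattaaTATTTATatgtatttatg
JUN (chr1:58780819-58780847, minus strand): ttgcttatgaaTATTTATaacagcattct
CXCL8 (chr4:73742664-73742692, plus strand): atgtaaagtatTATTTATttgaatctaca
DUSP1 (chr5:172768643-172768671, minus strand): gggctggtcctTATTTATttaacttcacc
CCND1 (chr11:69652694-69652722, plus strand): gctaaaaagtaTATTTATtgcagaggatg
WEE1 (chr11:9589491-9589519, plus strand): tcaatatttgTGTATATAaaccgatcttc
BCL6 (chr3:187721968-187721996, minus strand): atggcagagtTGTAAATAtataaatatat
The first 5 carry the AU-rich core, which occurred 4 times in the intervals of IER3 and CXCL8 and 3 times in that of DUSP1. CCND1 was also the target of the shRNA. WEE1 and BCL6 each held the Pumilio element 2 times. The same letters were also found in genes that lost label slowly, shown here so that a match is not read as a site.
EDIL3 (chr5:83942221-83942249, minus strand): aaactgatttcTATTTATtttgcttcaaa
RBM3 (chrX:48577502-48577530, plus strand): ccaaatggctgTATTTATaaaggtttttg
RPS29 (chr14:49583587-49583615, minus strand): gataattcttTGTATATAaaataaacatt
EDIL3, an extracellular matrix protein, had half-lives of 27.4 and 20.2 h with 4 matches to the AU-rich core, RBM3 had 24.6 and 25.6 h with the AU-rich core, and RPS29 had 26.7 and 29.4 h with the Pumilio element.

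Over the 4803 genes with a half-life, the share with a match declined from short to long half-lives. The AU-rich core was in 47.3, 44.4, 41.8, 38.3 and 21.9% of genes in the quintiles of half-life from shortest to longest, beside 38.7% of all these genes and 26.9% of all genes in the files. The Pumilio element was in 43.4, 41.6, 35.4, 29.9 and 16.5%, beside 33.4% and 22.0%. The decline was steepest between the fourth and the last quintile, where the median interval length also dropped from 1472 to 835 bases. Per kb, the AU-rich core went from 0.376 in the first to 0.236 in the last quintile and the Pumilio element from 0.303 to 0.159 between these ends, although for the AU-rich core the fourth quintile (0.333) lay above the second (0.321) and the third (0.316). Median abundance differed as well, at 26.2 CPM in the first and 104 CPM in the last quintile, and GC content of the intervals at 40.8% and 43.1%.

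Within the tested genes, the AU-rich core was present in 47.6% of the faster, 38.3% of those not passing and 23.4% of the slower genes, and the Pumilio element in 44.6, 32.7 and 17.5%. Splitting the genes at their median length of 1458 bases left the same order. In the shorter intervals the AU-rich core was found in 25.0, 18.2 and 11.8% of faster, not passing and slower genes, and in the longer ones in 62.9, 56.6 and 46.7%. For the Pumilio element the shares were 28.8, 15.9 and 8.08% in the shorter and 55.3, 48.1 and 36.5% in the longer intervals. These are descriptions, without a test, and the share of a gene's reads that such a site touches is unknown.

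**Figure D4:**
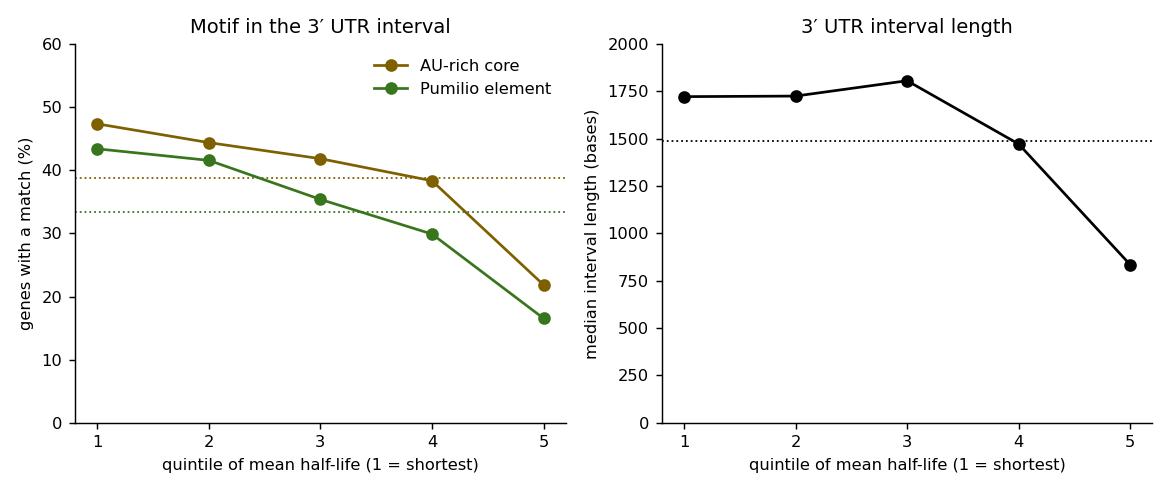
Left, share of genes (%) whose 3′ UTR interval holds the AU-rich core or the Pumilio element, and right, median interval length (bases), by quintile of mean half-life from shortest to longest; dotted lines give the values over all 4803 genes. The AU-rich core goes from 47.3% to 21.9%, the Pumilio element from 43.4% to 16.5% and the length from 1722 to 835 bases.

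The 720 min library of replicate 1 stood apart in several measures. It held 21780620 3′ UTR reads, against at least 23223773 in the other labelled libraries, and 21.2 covered T bases per read against 23.2 to 25.5. The unlabelled library of replicate 1 was lower in both, with 14712332 reads and 20.7 covered T bases per read. That unlabelled library gives the background of every replicate 1 half-life. Of the mapped reads of the 720 min library of replicate 1, 61.5% fell in 3′ UTRs, against 65.4% to 72.9% in the other 16 libraries. Over genes, its deviation from the line's mean correlated with GC content at -0.471, against -0.234 to 0.306 in the other libraries, and with the deviation of the unlabelled library of replicate 1 at 0.645 (Pearson's r over genes of the same libraries, a description). Against the mean of its 360 and 1440 min neighbours, log2(CPM + 1) moved by more than 1 in 1698 of 7115 genes (291 higher, 1407 lower), while in replicate 2 this was so for 26. The step at which this library came to differ was not tested.

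Genes whose half-life moved with the library were then examined. CTSD, the lysosomal protease cathepsin D, had 383 reads in this library, against 5136 at 360 min and 5487 at 1440 min of the same replicate. Its T>C rate was 0.577% at 360 min, 0.0174% at 720 min (95% Wilson interval 0.00307% to 0.0984%, 1 conversion in 5751 covered T bases) and 0.211% at 1440 min. A rate that drops and comes back cannot be followed by any decay curve, and in replicate 2 the 720 min rate of CTSD was 0.544%. Without the library, the replicate 1 half-life of CTSD went from 11.1 to 21.5 h. CLTB, a clathrin light chain, went from 10.0 to 16.7 h, FIBP from 7.21 to 13 h, ETFB from 7.21 to 11.9 h, MRPL28 from 7.71 to 12.6 h and C1orf122 from 10.3 to 16.8 h. In the other direction, FARSA, a subunit of phenylalanyl-tRNA synthetase, kept 28.9% at 360 min but 73.6% at 720 min, and went from 8.33 to 4.85 h. SUMF1 went from 13.3 to 6.94 h, LIMK1 from 5.80 to 3.56 h, HSPBP1 from 6.27 to 4.16 h, DYNC2H1 from 5.72 to 3.83 h and HM13 from 8.10 to 5.44 h. These 12 genes were taken because they moved most.

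Over the 4396 genes with all 3 values, the median half-life of replicate 1 was 4.76 h with the library and 5.54 h without it, beside 4.38 h in replicate 2. It lengthened without the library in 91.0% of genes, by a median ratio of 1.12, and 34 genes moved by more than 1.5-fold. The median of replicate 1 was thus farther from that of replicate 2 without the library. Replicate 1 had a half-life for 5823 genes with the library and for 5298 without it, with 554 genes lost and 29 gained. The lost genes are not among the 4396, so the effect on them was not measured. Across genes with a half-life in both replicates, Spearman's rho between the replicates was 0.670 with the library and 0.685 without it (4803 and 4411 genes). The move differed by lifetime, but genes with short half-lives had little room to move. In the quintile with the shortest mean half-lives, replicate 1 fits without the 720 min point left a median of 3.31% at that time. The observed median was 0%, so leaving the point out could change these fits little. In the quintile of genes with the shortest replicate 2 half-lives the median ratio was 1.02, in the next ones 1.06, 1.15 and 1.21, and in the longest 1.18. By function, immediate early genes (1.00) and KLF and SP factors (1.00) hardly moved, and ribosomal proteins moved little (1.04), with medians of 17.3 and 17.4 h. Lists with larger ratios were the proteasome at 1.26, tRNA synthetases at 1.25, sterol synthesis at 1.23 and the lysosome at 1.21. The median of proteasome genes in replicate 1 went from 8.01 to 9.94 h and that of lysosomal genes from 6.87 to 9.68 h, beside 7.76 and 7.18 h in replicate 2. The counts of faster and slower genes above use no 720 min library.

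Part of the low label at 720 min was shared by replicate 2. When each gene's curve was fitted without its 720 min point (4145 genes), replicate 1 was predicted to keep a median of 22.4% and kept 1.39%, and replicate 2 was predicted to keep 17.4% and kept 4.76%. Values lay below prediction in 91.9% and 82.4% of genes. The prediction is a single exponential, which the median gene did not follow in either replicate. A shortfall against it therefore cannot be ascribed to the library. In 33.4% of genes in replicate 1, and 13.2% in replicate 2, the 720 min value was below the gene's own 1440 min value. Counting only genes of at least 10 CPM whose Wilson intervals at 720 and 1440 min did not overlap, 688 of 7114 (9.67%) had the lower rate at 720 min in replicate 1 and 277 (3.89%) in replicate 2. The ratio of observed to predicted label in replicate 1 did not run with GC content across 4015 genes (r of -0.00444), unlike the change of abundance (r of -0.499). In that library 32.0% of genes were at 0 after background subtraction, and the prediction is the same exponential. The first r can therefore not decide whether label values were free of the GC-related difference. Removing the 720 min libraries of both replicates gave a median half-life of 5.31 h over 4169 genes, so the fitted values depend on this time point in both.

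**Figure D5:**
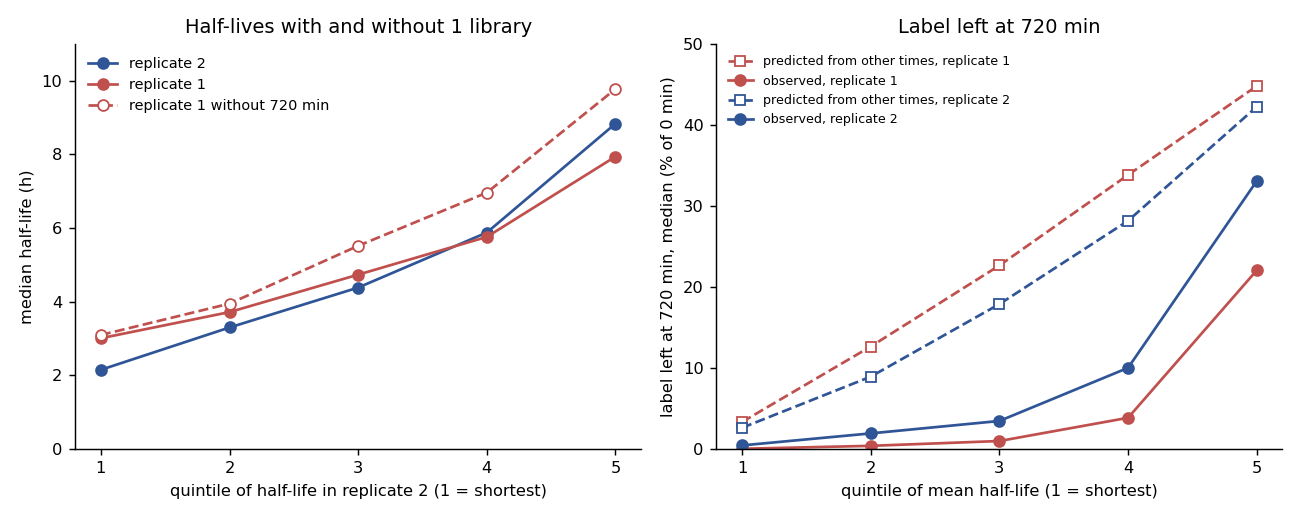
Left, median half-life (h) by quintile of replicate 2 half-life, for replicate 2, for replicate 1 and for replicate 1 without its 720 min library; right, median label left at 720 min (% of 0 min) by quintile of mean half-life, observed (filled circles) and predicted from the other times (open squares). In the quintile with the longest half-lives replicate 1 goes from 7.94 to 9.78 h on the left, and keeps 22.0% against a predicted 44.8% on the right, beside 33.1% against 42.2% in replicate 2. The predictions are single exponential curves, which the median gene did not follow.

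Against the knockdown line, the interaction of line and chase time from 0 to 360 min was tested over the 22 libraries of both lines. By edgeR 0 of 7145 genes passed at an adjusted p of 0.05, and 771 (10.8%) had an unadjusted p under 0.05, with DESeq2 calling 95. Without replicate 1 of each line edgeR called 37, and without replicate 2 it called 3. CCND1 was among the 5 lowest p-values of its direction: it kept 7.30% and 0.539% of its label at 360 min in the overexpression line and 24.5% and 30.9% in the knockdown line. Its 3′ UTR reads lay between 24.8 and 56.9 CPM in the labelled libraries of the overexpression line and between 73.8 and 130 CPM in those of the knockdown line, so they do not follow the names of the lines. Its half-lives were 3.60 and 2.07 h against 4.99 and 4.51 h, and the slope was steeper in the overexpression line by 0.29 per h (SE 0.0672, adjusted p = 0.097 by edgeR). FOXC2, a forkhead transcription factor, kept 7.44% and 0.915% against 24.5% and 21.6%, and TEAD1, a transcription factor of the Hippo pathway, went the other way with 50.5% and 39.8% against 11.3% and 18.8%. None of these genes passed the adjustment, and the profile described here was not shown to differ from that of the other line for any single gene.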

How the data were processed

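SLAM-seq libraries (QuantSeq FWD 3′ end kit) were made from 75 ng of RNA and read for 100 nt. The authors had the reads mapped to hg38 and processed with SLAMdunk 0.4.3 by a sequencing service, and deposited per-interval tables with raw counts of reads, multimapped reads, covered T bases and T>C conversions for 71668 annotated 3′ UTR intervals. The sources used here do not give the release of that annotation. The deposited CPM divides the reads of an interval by all mapped reads of its library. A further deposited column gives, as a fraction, the conversions divided by the covered T bases. The interval length and T number, listed by the authors beside them, were treated as a score and matched the hg38 sequence in every interval.

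Intervals of a gene symbol were summed, leaving out 1168 intervals that list several genes (2.35% to 2.74% of reads) and 7814 with over 10% multimapped reads, which stood in for the removal of reads of several genes and left 17037 genes. Samples were grouped by title. The T>C rate was conversions over covered T bases, minus the rate of the unlabelled library of the same replicate, with negative values set to 0. It was divided by the 0 min rate and a curve exp(-Kt) was fitted to it by least squares, over time points of at least 1 CPM, with at least 4 points, an R2 of at least 0.6 and K inside 0.001 to 20 per h. Half-lives are given per replicate, or as mean ± SD over 2 replicates, without a test.

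Slopes were tested with edgeR 4.0.16 (R 4.3.3), quasi-likelihood, on conversions after subtraction, for genes of at least 1 CPM and 30 conversions at 0 min. The offset was covered T bases times the rate of the median gene, and p-values were adjusted by Benjamini-Hochberg over all genes tested at 0.05. Replicate entered as a block, since the study normalises and fits each replicate on its own. The tests were tried on simulated data. The study's methods name no molecular identifiers, and Wilson 95% intervals cover counting error only. Python 3.11.15, SciPy 1.17.1 and, as an alternative, DESeq2 1.42.0 were used. Alternatives changed the reference, background, filters, fit, tool, time range and libraries.

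The libraries, the gene lists and the genes named were chosen with earlier results of these data known. Named were the 12 shortest and the 12 longest half-lives among called genes of at least 10 CPM and a relative SD under 50% (not all are printed), the 2 shortest and 2 longest of each list, a fixed set (CCND1, MYC, FOS, JUN, IER3, KLF6, EIF1, RAB7A, RHOA, ACTB, GAPDH, RPLP1, RPL27A, RPS12 and LGALS1), the 6 genes moved most each way by the 720 min library of replicate 1, and the 5 lowest p-values each way between the lines. Where at most 5 members of a list took a direction or did not pass they are named too, and those outside the rule were chosen after their values were seen. FOS and ACTB were not tested. The lists hold the symbols of the files. A few genes that the rule names are not reported here.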

Additional observations from a re-analysis of the deposited data

How the results depend on the processing

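The balance of calls moved with the reference and the time range. Against the main 1637 faster and 1537 slower genes, the rate over all reads gave 2319 and 761. All times to 1440 min gave 2503 and 522 (82.7% of calls faster), with 799 of the faster genes in both sets, and the same without the 720 min library of replicate 1 gave 2384 and 609 (79.7%). Leaving out a replicate, or the 20 min library of replicate 1, gave 614 to 1785 faster and 609 to 1672 slower genes. The lower values came without replicate 2, where only the 5 libraries of replicate 1 from 0 to 360 min remain. Without the replicate block 1632 were faster and 1547 slower, 1569 and 1505 of them shared with the main calls, and between the lines 0 passed. TMM scaling, conversions as deposited, DESeq2, no filter on low counts, multimapped intervals kept and the background of replicate 2 left both counts within 1.5 times. The 20 min and background alternatives, and DESeq2 between the lines, were chosen after seeing the data. The difference between the lines passed for 2 genes with conversions as deposited, 95 with DESeq2, and 3 to 37 when a replicate was left out. The median half-life of 4.58 h was 5.12 h with no R2 minimum (8721 genes) and 4.24 h with a free starting level, and lay between 4.11 and 5.31 h when replicates or 720 min libraries were left out. It kept within the spread of replicates with no subtraction (4.72 h), the labelled amount (4.65 h), a 10 CPM minimum (4.72 h), multimapped intervals (4.65 h) and the background of replicate 2 (4.56 h). Without the 720 min library of replicate 1 the medians of 16 of 31 lists moved by more than the spread between replicates, as did 19 with a free starting level, 19 with the labelled amount and 12 with no subtraction, and 17 of 26 single genes moved with the labelled amount. The cause of these moves was not tested. Depth limits genes near 1 CPM and all label at 720 and 1440 min, where most rates were near the unlabelled ones.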

Other observations

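A few genes became more abundant early in the chase. Of 8611 genes with at least 3000 covered T bases, 8 were more than 2-fold above their 0 min CPM both at 90 min in replicate 1 and at 45 min in replicate 2, namely DUSP6, EGR1, HIC1, JUNB, LIF, RGS2, RHOB and SS18L1, and 0 were below the inverse of this fold in both. This was looked for after the profiles were seen, rests on 1 library per time and was not tested. EGR1, an immediate early transcription factor, went from 6.27 to 102 CPM in replicate 1 and from 4.30 to 157 CPM in replicate 2, and was at 3.86 and 2.77 CPM at 1440 min. Its T>C rate went from 0.236% to 0.751% and from 0.0169% to 0.708% at the same times, so the EGR1 reads of those libraries carried label although the medium had been changed to uridine. JUNB, a subunit of AP-1, went from 41.9 to 111 CPM and from 30.4 to 71.2 CPM. The levels of these genes were not steady over the chase, which limits the half-lives and slopes given for any of them, JUNB included. Between the same libraries the T>C rate also rose in both replicates for DUSP6, LIF, RHOB and SS18L1. For DUSP6 it went from 0.428% to 0.732% and from 0.644% to 1.12%. It fell in both replicates for HIC1 and JUNB, and for RGS2 it rose in replicate 1 and fell in replicate 2. Whether RNA of genes outside these 8 also took up label after the change to uridine was not tested. The half-lives and slopes of all genes rest in part on these early libraries, so this limit applies to them as well. A link to the slow early loss of label in the median gene was not tested.

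Some abundant genes were left out for multimapped reads. With those intervals kept, half-lives in replicates 1 and 2 were 11.2 and 12 h for ACTB (41.8% multimapped reads), 12.7 and 11.5 h for the elongation factor EEF1A1 (99.1%) and 5.21 and 4.77 h for the chaperone HSPA8 (83.6%). Reads of near-identical copies cannot be told apart in these values.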
